A study of Homo sapiens with 4 samples.

Results

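YAP, TAZ and the TEAD factors are the nuclear end of the Hippo pathway, and the accessibility of their genes and of 4 of their target genes was compared in pancreatic progenitors with and without the BET inhibitor I-BET151. The ATAC-seq peaks of 4 libraries were merged, and a merged region belonged to a locus when it overlapped the gene body of YAP1, WWTR1 (the gene of TAZ), TEAD1, TEAD2, TEAD3, TEAD4, CCN1, CCN2, ANKRD1 or AMOTL2 (GENCODE release 44, hg38), extended by 20 kb on each side. This gave 133 of 164301 merged regions. The cells were pancreatic progenitors differentiated from MEL1, 1 established human embryonic stem cell line, given in the study's methods as MEL1 INS GFP/W (a GFP reporter in 1 allele of the insulin gene), and all were kept in EF6, a basal medium with B27, EGF, bFGF and the TGFβ receptor inhibitor 616452. The DMSO group received the solvent and the I-BET151 group received 1 μM of the inhibitor, each for 7 days, with 2 libraries per group and 50000 cells collected for each library. All values thus come from 1 genetic background, and no source used here says whether the libraries of a group came from separate cultures, so the spread between them may be technical.

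In the Hippo pathway, the kinases MST and LATS phosphorylate YAP and TAZ, which then stay in the cytoplasm or are degraded. When the kinases are inactive, YAP and TAZ enter the nucleus and bind TEAD factors, which recognise a short DNA motif and recruit the coactivators to promoters and enhancers. In the pancreas, YAP is known for its activity in multipotent progenitors and its silencing as cells enter the endocrine lineage. I-BET151 displaces BET proteins, which read acetylated histones, from chromatin. ATAC-seq marks accessible chromatin by the places where the Tn5 transposase inserts sequencing adapters.

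The lists differed in length and depth, which bears on every value below. There were 82568 and 38295 peaks in the DMSO lists, beside 84995 and 111324 with I-BET151 (60432 ± 31306 against 98160 ± 18617, mean ± SD, n = 2 each). An exact permutation test, two-sided, gave p = 0.33, and no smaller p can be reached with n = 2 each. Read numbers estimated from the background level were 38.7 and 36.6 M with DMSO and 12.5 and 16.0 M with I-BET151. Fold enrichment, the pileup of reads at a peak summit over the local background as the authors' caller gave it, had a median over each list of 3.88 and 4.08 with DMSO and of 5.56 and 6.03 with I-BET151. Because of this general difference, a region was also described by its percentile of fold enrichment within its own list, set to 0 where the list held no peak. What part these differences have in the results was not tested. Of 8 pancreatic progenitor marker genes, 6 had a region within 1 kb of the start site in both DMSO lists and 8 in both I-BET151 lists. The corresponding counts were 1 and 1 of 4 pluripotency genes, 0 and 1 of 4 endocrine genes, 1 and 1 of 4 hepatic genes, and 2 and 3 of 5 mesenchymal and endothelial genes. No list had a region within 1 kb of the start sites of POU5F1, NANOG, NEUROG3, INS, GCG, ALB, AFP or CDH5, while COL1A1 and TWIST1 had one in all 4 lists. PDX1, a defining progenitor gene, had a start-site call with I-BET151 (percentiles of 35.3 and 37.3) and none with DMSO. The percentile at the COL1A1 start site was 20.3 and 18.8 with DMSO and 71.6 and 84.1 with I-BET151, and PDGFRB was called with I-BET151 alone, at percentiles of 2.71 and 6.59. Summed over the 5 mesenchymal and endothelial genes, the percentiles were 74.8 and 42.5 with DMSO and 85.8 and 124 with I-BET151, and over the 8 progenitor genes 367 and 320 against 428 and 422. The part of these differences in the results was not tested.

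TEAD motifs were present in 6 of the 12 promoter regions of these genes. The motif GGAATG was searched on both strands within 100 bp of each summit, and TGANTCA, the motif of AP-1 factors, which often bind beside TEAD, was searched in the same way. Matches of the 2 motifs can overlap by a few bases, which none did in the windows printed here. GGAATG occurred in 6 of the 12 member regions that lay within 1 kb of their gene's start site (50.0%), compared with 7.55% of all 14828 regions within 1 kb of a protein-coding start site. With windows of 50 bp it occurred in 4 of the 12 (against 3.78%) and with windows of 250 bp in 9 (against 18.2%). CCN1, CCN2 and ANKRD1 count among the 10 genes because TEAD is known to act on them, so their matches are not independent of that choice. The sequences below, read from hg38 in the direction of transcription, show the matches at 4 of these genes, with both motifs in capitals (CATTCC is GGAATG on the opposite strand). Untranslated sequence was left out.
CCN2 promoter, chr6:131951373-131951514, minus strand: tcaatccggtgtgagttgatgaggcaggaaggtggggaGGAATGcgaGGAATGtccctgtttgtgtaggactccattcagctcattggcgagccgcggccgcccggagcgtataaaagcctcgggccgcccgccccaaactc
CCN1 promoter, chr1:85580580-85580760, plus strand: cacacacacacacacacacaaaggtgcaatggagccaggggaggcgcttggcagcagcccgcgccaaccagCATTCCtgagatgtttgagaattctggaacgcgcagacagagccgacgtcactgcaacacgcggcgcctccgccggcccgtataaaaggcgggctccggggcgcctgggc
ANKRD1 promoter, chr10:90921206-90921406, minus strand: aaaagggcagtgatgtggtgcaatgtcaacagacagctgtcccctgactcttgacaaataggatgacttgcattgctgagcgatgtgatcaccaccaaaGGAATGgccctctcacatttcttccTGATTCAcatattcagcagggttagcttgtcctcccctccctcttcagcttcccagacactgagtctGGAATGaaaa
YAP1 promoter, chr11:102110195-102110395, plus strand: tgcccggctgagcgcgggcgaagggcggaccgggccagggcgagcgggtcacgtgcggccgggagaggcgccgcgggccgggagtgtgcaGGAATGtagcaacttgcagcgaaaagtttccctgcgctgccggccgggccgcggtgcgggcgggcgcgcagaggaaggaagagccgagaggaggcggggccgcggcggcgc
The CCN2 promoter held 2 copies of GGAATG, 104 and 95 bp upstream of the start site. In the ANKRD1 promoter, 2 copies 220 and 128 bp upstream flanked a TGANTCA match that began 195 bp upstream. The CCN1 copy lay 110 bp and the YAP1 copy 162 bp upstream. Another of the 6 (TEAD2 region 7) had its summit 231 bp from the start site of DKKL1, a neighbour of TEAD2, and was counted for TEAD2 because its edge came within 1 kb of the TEAD2 start. Among the 121 regions away from the start sites, 18 held GGAATG (14.9%). Over all 133 regions, GGAATG occurred in 24 (18.0%, against 15.0% of all merged regions) and TGANTCA in 11 (8.27%, against 11.0%). For GGAATG the shares were 9.77% against 7.93% with windows of 50 bp and 31.6% against 30.5% with windows of 250 bp. A match is a stretch of letters and does not show that a factor was bound.

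In the full lists, regions called only with I-BET151 made up a share at these loci close to that in the genome as a whole. A region was termed gained when both I-BET151 lists held a peak there and no DMSO list did, and lost in the opposite case. Of the 133 regions, 22 were gained (16.5%), compared with 17.0% of all merged regions, and 3 were lost (2.26%), compared with 2.37%. The comparison of the gained share varied with the lists used. It was 14.1% against 9.19% with the 38295 strongest peaks of each list and 29.0% against 23.3% at a −log10 p of at least 10, but 33.6% against 43.7% without I-BET151 replicate 1 and 31.3% against 35.8% without I-BET151 replicate 2. A further 33 regions (24.8%, against 15.6%) were shared by all 4 lists, and 75 were called in another combination, of which 24 came from DMSO replicate 1 alone. Between the replicate 1 lists, 36 regions had a peak with I-BET151 alone and 34 with DMSO alone. Between the replicate 2 lists the numbers were 52 and 5. The same contrast between the pairs was present over all regions, with 46196 and 44051 in the replicate 1 lists and 79854 and 6306 in the replicate 2 lists. A region that is missing from a list fell under the threshold of that list and is not known to be closed.

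**Figure D1:**
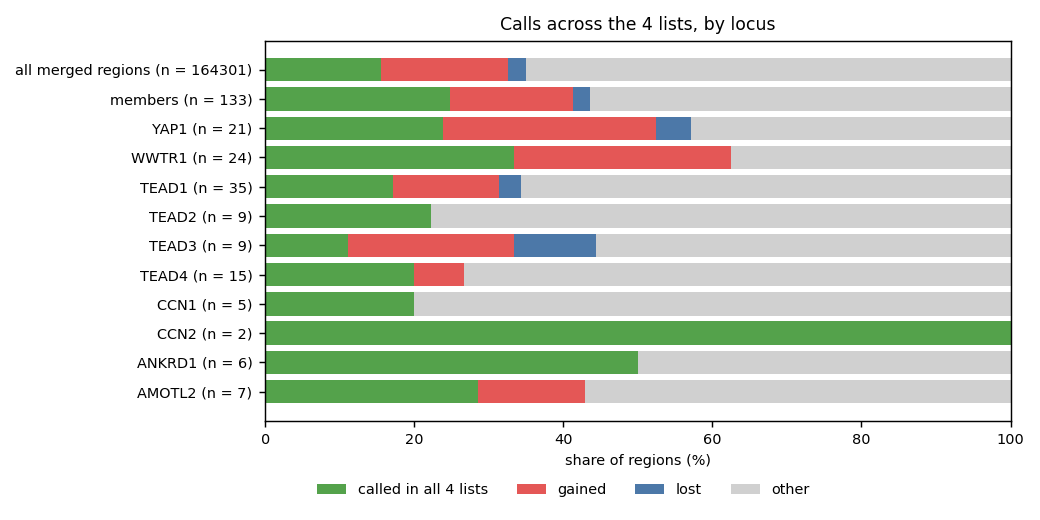
Share of regions (%) shared by all 4 lists, gained, lost or called in another combination, for all merged regions, for the 133 member regions and for each locus, with the number of regions in brackets. The gained share was 28.6% at YAP1 and 29.2% at WWTR1, 17.0% over all regions, and 0 at TEAD2, CCN1, CCN2 and ANKRD1.

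Of the 22 gained regions, 13 lay at the genes of the coactivators. YAP1 and WWTR1 together held 13 gained regions of 45 (28.9%), the 4 TEAD genes held 8 of 68 (11.8%) and the 4 target genes held 1 of 20 (5.00%), beside 17.0% over all regions. These shares are counts at a few loci and were not tested. They depended on single libraries. The shares of the coactivator, TEAD and target genes were 47.5%, 27.4% and 23.5% without I-BET151 replicate 1 (43.7% over all regions) and 46.2%, 23.7% and 23.5% without I-BET151 replicate 2 (35.8%). They were 15 of 42, 13 of 50 and 2 of 17 regions without DMSO replicate 1 (26.8% over all regions) and 28.9%, 12.1% and 5.00% without DMSO replicate 2 (18.3%). With only the 38295 strongest peaks of each list, the shares were 16.7%, 13.8% and 9.09%, beside 9.19% over all regions. When only peaks with a −log10 p of 10 or more were kept, the share of the target genes became 4 of 11 (36.4%), beside 23.3% over all regions. Between the replicate 1 lists, 18 coactivator regions had a peak with I-BET151 alone and 6 with DMSO alone, and the numbers were 14 and 24 at the TEAD genes. Between the replicate 2 lists they were 22 and 1 at the coactivator genes and 24 and 4 at the TEAD genes, so that the direction at the TEAD genes differed between the pairs.

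YAP1 encodes the coactivator YAP. Its promoter (region 1, with regions numbered by position along each locus) had fold enrichments of 3.43 and 3.30 with DMSO and 5.25 and 4.92 with I-BET151, from pileups of 24, 26, 37 and 55 reads. The percentiles were 29.1 and 21.7 with DMSO and 44.3 and 31.8 with I-BET151, so that region 1 ranked in the lower part of all lists and its I-BET151 values were above both DMSO values. Ranked only among the regions shared by all 4 lists, it was not higher with I-BET151 (rank shift of -0.21, limma adjusted p = 0.787, described below). Region 2 in intron 1, also within 1 kb of the start site, had folds of 4.16, 4.59, 6.32 and 5.22. Its percentiles were 60.5 and 63.3 with DMSO and 60.8 and 37.5 with I-BET151, and thus not higher with I-BET151. The strongest YAP1 region was region 9 in intron 2 (chr11:102157234-102157677), 46952 bp downstream of the start site, with fold enrichments of 6.16 and 5.44 with DMSO and 13.1 and 12.8 with I-BET151. It stood at percentiles of 89.3, 77.2, 96.6 and 94.1 and thus near the top of every list. Among the 6 gained YAP1 regions, the one with the highest fold was region 21 (chr11:102253050-102253767), downstream of the gene, with 8.58 and 11.6 from pileups of 22 and 44 reads (exact Poisson 95% intervals of 13.8 to 33.3 and 32.0 to 59.1, which cover counting error only). The other 5 lay in introns 2, 4 and 7 and in the coding part of exon 9. Region 11 in intron 3 (chr11:102174739-102175124) was lost, with fold enrichments of 4.31 and 3.33 from 17 and 14 reads in the DMSO lists.

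WWTR1 encodes TAZ, the paralogue of YAP. The promoter (region 15, chr3:149657587-149659092) was among the more strongly enriched regions in all lists, with fold enrichments of 4.98 and 6.26 with DMSO and 10.1 and 9.97 with I-BET151 and percentiles of 78.2, 85.6, 88.3 and 84.1. The I-BET151 folds were higher and the percentiles overlapped. All 7 gained WWTR1 regions had low to intermediate pileups, between 7 and 28 reads. The strongest was region 7 in intron 3 (chr3:149553779-149554629), with folds of 8.28 and 7.23 from 26 and 28 reads, and it held a TGANTCA match. WWTR1 has longer transcripts that begin upstream of the canonical start site, so that the gained regions 17 and 21 lay within its gene body although upstream of this start, while gained region 23 lay within COMMD2. The region with the highest mean percentile in the window, region 24, lay 176 bp from the start site of the neighbouring gene COMMD2, with percentiles of 95.2, 80.1, 95.0 and 96.0.

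The TEAD genes encode the DNA-binding partners of YAP and TAZ. At TEAD1, the promoter (region 1) had fold enrichments of 5.12 and 4.88 with DMSO and 6.91 and 8.41 with I-BET151, at percentiles of 79.6, 68.8, 67.2 and 74.2, which overlapped. Of its 35 regions, 5 were gained, all in introns, and the strongest was region 29 in intron 9 (chr11:12888815-12889216), with folds of 6.63 and 10.0 from 12 and 30 reads. Region 6 in intron 2 was lost, with folds of 3.56 and 3.01 from 15 reads in each DMSO list. TEAD1 region 26 in intron 3 had the highest mean percentile, with 84.3, 83.7, 83.0 and 94.7.

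In the full lists, TEAD3 was the only gene of the 10 with a gained promoter. This was 1 of the 12 member regions at a start site (8.33%), beside 11.1% gained among all 14828 regions within 1 kb of a protein-coding start site. TEAD3 region 5 (chr6:35496101-35498160) had folds of 4.26 and 4.49 from 19 and 35 reads with I-BET151 (exact Poisson 95% intervals of 11.4 to 29.7 and 24.4 to 48.7), at percentiles of 20.1 and 24.3, and no call with DMSO. It thus ranked low in both I-BET151 lists. Its −log10 p was 8.55 in I-BET151 replicate 1, under the alternative threshold of 10, and 14.1 in I-BET151 replicate 2. Region 4 in intron 1 was gained as well, with 4.11 and 4.92. Region 2, in the 3′ UTR within exon 13, was lost, with 3.60 and 3.24 from 28 and 23 reads in the DMSO lists. The shared region in the TEAD3 window, region 1, lay 69 bp from the start site of RPL10A, a ribosomal protein gene.

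At TEAD2, no region was gained or lost, and 5 of its 9 regions were called in DMSO replicate 1 alone. The region within its first intron nearest the start site (region 6) was called in 3 lists, with a fold of 2.99 in DMSO replicate 1 and of 5.49 and 5.02 with I-BET151. TEAD4 had 1 gained region, region 6 in intron 2, with 5.29 and 5.31 from 10 and 19 reads. The TEAD4 promoter (region 2) was shared, with folds of 3.55 and 3.11 with DMSO and 4.02 and 5.61 with I-BET151. Its percentiles of 33.5, 14.5, 11.4 and 43.8 overlapped between the groups.

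Among the target genes, AMOTL2 showed the widest separation between the groups with windows of 20 kb and the full lists, whereas the percentiles of the CCN1 and CCN2 promoters overlapped. CCN1 and CCN2 (CYR61 and CTGF) encode secreted matricellular proteins, ANKRD1 encodes an ankyrin repeat protein, and AMOTL2 encodes a junction protein of the angiomotin family that binds and restrains YAP. The CCN2 promoter (region 1, chr6:131950431-131951776) had folds of 5.23 and 5.03 with DMSO and 7.63 and 7.10 with I-BET151, from 38, 39, 48 and 73 reads, while its percentiles were 81.6, 70.9, 73.7 and 62.2 and overlapped. The CCN1 promoter (region 4, chr1:85580599-85581714) had folds of 3.08 and 3.43 with DMSO and 4.21 and 3.72 with I-BET151, at percentiles of 13.0, 27.3, 19.5 and 10.6, low in all lists. The ANKRD1 promoter (region 5, chr10:90921063-90921724) had folds of 5.36, 4.10, 9.33 and 9.98 and percentiles of 82.7, 51.3, 84.7 and 84.1, so that DMSO replicate 2 was the low library and both I-BET151 values were above both DMSO values.

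The AMOTL2 promoter (region 5, chr3:134373313-134375504) had folds of 2.96 and 3.06 with DMSO and 6.66 and 6.59 with I-BET151, from 35, 36, 44 and 94 reads. Its percentile was 8.83 and 13.0 with DMSO and 64.1 and 56.6 with I-BET151, so that both I-BET151 values were far above both DMSO values. Region 4 in intron 5 (chr3:134363733-134364891) had folds of 3.13, 3.67, 7.55 and 8.84 and percentiles of 15.4, 36.6, 73.1 and 77.3, which did not overlap either. How common such a separation of percentiles was among all shared regions was not examined, here or at YAP1 region 1 and ANKRD1 region 5. Region 2 in intron 9 (chr3:134357762-134358322) was gained, with folds of 6.81 and 7.24 from 28 and 56 reads. The neighbouring region 3 in exon 9 was called only in I-BET151 replicate 1. The windows around the 2 shared AMOTL2 summits are printed here because both regions separated the groups, with the TEAD3 promoter and 2 gained YAP1 regions beside them.
YAP1 intron 7, gained, chr11:102225922-102226122, plus strand: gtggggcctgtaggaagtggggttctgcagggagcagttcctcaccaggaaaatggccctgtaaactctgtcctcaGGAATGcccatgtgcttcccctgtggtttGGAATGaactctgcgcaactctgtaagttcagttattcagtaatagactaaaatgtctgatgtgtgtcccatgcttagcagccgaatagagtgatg
TEAD3 promoter, gained, chr6:35497185-35497385, minus strand: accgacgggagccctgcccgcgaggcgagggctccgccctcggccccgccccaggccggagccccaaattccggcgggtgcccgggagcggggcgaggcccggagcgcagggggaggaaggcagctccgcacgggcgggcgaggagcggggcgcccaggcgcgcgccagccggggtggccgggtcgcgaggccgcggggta
AMOTL2 promoter, chr3:134374521-134374721, minus strand: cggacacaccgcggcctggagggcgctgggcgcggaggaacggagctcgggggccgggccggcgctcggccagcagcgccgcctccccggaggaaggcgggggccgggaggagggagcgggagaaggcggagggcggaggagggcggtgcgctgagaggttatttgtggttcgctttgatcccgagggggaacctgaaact
AMOTL2 intron 5, chr3:134364268-134364468, minus strand: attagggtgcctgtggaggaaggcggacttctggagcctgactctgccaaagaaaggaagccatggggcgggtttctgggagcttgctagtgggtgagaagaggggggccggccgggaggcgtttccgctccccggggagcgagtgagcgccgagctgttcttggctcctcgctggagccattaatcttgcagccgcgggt
YAP1 downstream region, gained, chr11:102253189-102253389, plus strand: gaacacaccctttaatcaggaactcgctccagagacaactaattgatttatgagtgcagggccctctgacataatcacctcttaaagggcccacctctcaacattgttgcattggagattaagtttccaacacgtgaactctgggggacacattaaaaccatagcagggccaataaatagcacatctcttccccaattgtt
Neither AMOTL2 window, nor the TEAD3 promoter, nor the downstream YAP1 region held GGAATG or TGANTCA. YAP1 region 17 in intron 7, gained with folds of 5.26 and 5.12, held 2 copies of GGAATG. It and region 18 were the gained regions with this motif, 2 of 22 (9.09%), compared with 15.0% of all 27885 gained regions.

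**Figure D2:**
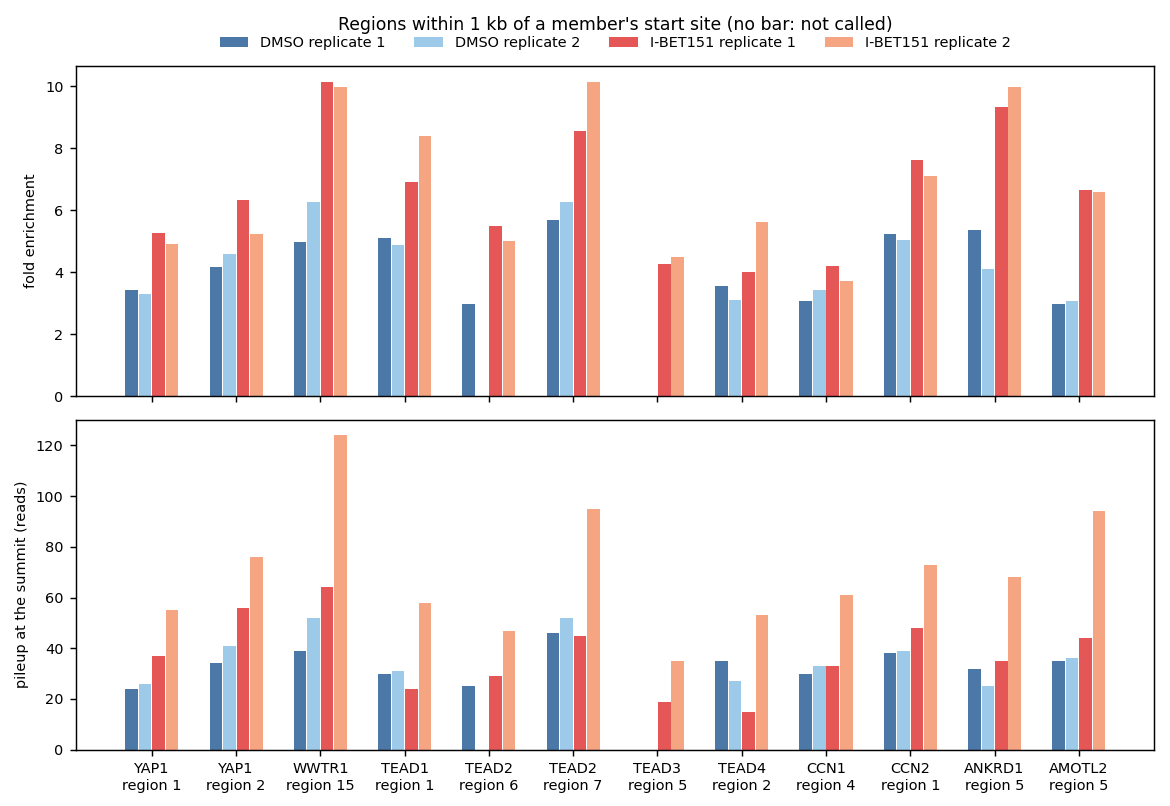
Fold enrichment (upper panel) and pileup at the summit in reads (lower panel) of the 12 regions within 1 kb of a member's start site, with 1 bar per library and no bar where a list holds no call. Folds are higher in both I-BET151 lists than in the DMSO lists at every region called in all 4, and the pileup of I-BET151 replicate 1 is below a DMSO value at TEAD1, TEAD4 and TEAD2 region 7, by the DKKL1 start site.

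Whether the regions shared by all lists changed their order among themselves was asked with limma. In each list, the 25627 shared regions were ranked by fold enrichment among themselves, and limma was fitted on normal scores of these ranks. The percentiles above instead rank a region among all called regions of its list. The 2 measures can thus differ in sign, for example at YAP1 region 1, WWTR1 region 15 and TEAD4 region 2. Of the 33 shared member regions, 0 had an adjusted p below 0.05 in either direction, compared with 3.41% of all shared regions that moved up and 1.96% that moved down with I-BET151. At an unadjusted p below 0.05 there were 9 of 33, and 24.9% of all shared regions. The median shift was -0.03 for the members and -0.03 for all shared regions, and 16 of 33 were positive. The fold itself was higher in both I-BET151 lists than in both DMSO lists at 32 of 33 members, but so it was at 90.1% of all shared regions (and lower in both at 0.242%), with a median ratio of 1.87 for the members and 1.79 for all.

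**Figure D3:**
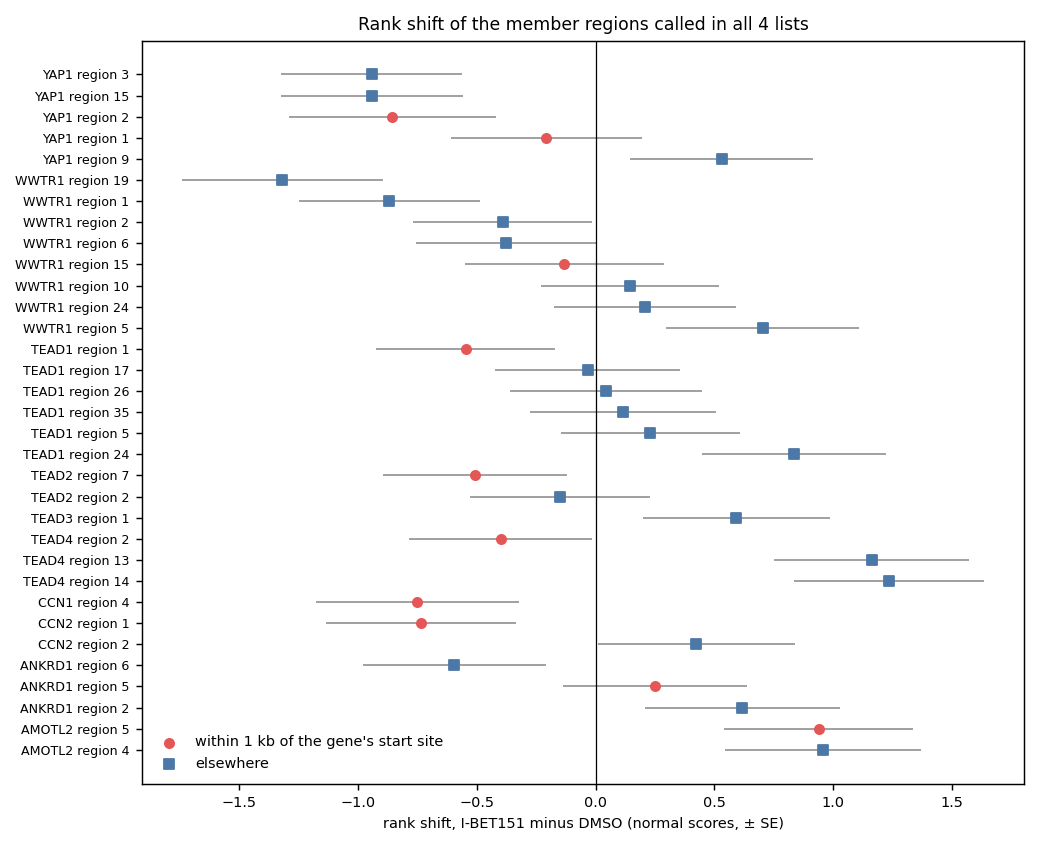
Rank shift of the 33 member regions called in all 4 lists, I-BET151 minus DMSO in normal scores (horizontal axis), with bars of 1 SE from limma, ordered by gene. Circles mark regions within 1 kb of the gene's start site, of which 2 of 10 (ANKRD1 and AMOTL2) lie above 0, and squares mark the other regions, of which 14 of 23 do. Over all shared regions, 4385 of 9526 within 1 kb of a protein-coding start site and 8022 of 16101 elsewhere were above 0. The difference by position was not tested.

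The members nearest to the threshold lay on both sides of 0, and none passed. WWTR1 region 19 (chr3:149686813-149687432), upstream of the canonical start site, had folds of 6.21, 5.05, 4.68 and 8.79 and a shift of -1.32 ± 0.42 (SE, limma adjusted p = 0.0759). TEAD4 region 14 (chr12:3041425-3042006), downstream of the gene, had folds of 3.21, 2.63, 6.25 and 7.23 and a shift of 1.24 ± 0.40 (limma adjusted p = 0.0792). TEAD4 region 13 in intron 10 had folds of 3.55, 2.89, 8.27 and 7.67 and a shift of 1.16 ± 0.41 (limma adjusted p = 0.0997). On the log2 pileup, centred on each library's median, TEAD4 region 14 lay lower with I-BET151 (-0.92, limma adjusted p = 0.0475), and region 13 had a difference of -0.49 (limma adjusted p = 0.249), so that their direction depended on the measure. The 2 AMOTL2 regions had shifts of 0.94 ± 0.40 (promoter, limma adjusted p = 0.158) and 0.96 ± 0.41 (intron 5, limma adjusted p = 0.165), and their differences on the centred log2 pileup were 0.34 and 0.32 (limma adjusted p = 0.303 and 0.352). At a −log10 p of at least 10 in every list, where 15 member regions were tested, AMOTL2 region 4 passed with a shift of 1.82 (limma adjusted p = 0.00722) and TEAD1 region 24 in intron 3 passed with 1.28 (limma adjusted p = 0.0449). Without DMSO replicate 1, however, the shift was 0.42 at AMOTL2 region 4 (limma adjusted p = 0.783) and 0.64 at the AMOTL2 promoter (limma adjusted p = 0.649), so that the size at region 4 rested on this library. Over all alternatives the limma adjusted p ranged from 0.00722 to 0.783 at region 4 and from 0.0527 to 0.649 at the promoter. The promoters of CCN1 and CCN2 had shifts of -0.75 ± 0.43 and -0.73 ± 0.40 (limma adjusted p = 0.288 and 0.265), and the promoter of WWTR1 had -0.13 ± 0.42 (limma adjusted p = 0.877). YAP1 regions 1 and 2 had shifts of -0.21 ± 0.40 and -0.85 ± 0.44 (limma adjusted p = 0.787 and 0.237). CCN2 region 2 had 0.43 ± 0.41 (limma adjusted p = 0.556).

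Each locus was summarised by a locus score, the mean percentile over its regions in a list. The score of AMOTL2 was 3.84 and 7.08 with DMSO and 33.0 and 34.9 with I-BET151, a difference of 28.5, which stood at percentile 92.4 among the 18865 protein-coding genes with a region. WWTR1 followed with 33.1 and 22.7 against 41.1 and 46.3 (difference 15.8), and YAP1 with 26.7 and 15.5 against 31.7 and 37.5 (difference 13.5). TEAD1, with 29.0 and 12.3 against 28.9 and 37.1, overlapped between the groups, as did TEAD2, with 44.7 and 15.2 against 22.6 and 21.8, and ANKRD1, with 54.4 and 24.9 against 39.0 and 37.5. In TEAD2 and ANKRD1 the 2 DMSO libraries were the highest and the lowest of the 4. TEAD4 had 11.5 and 4.82 against 13.6 and 21.3, and TEAD3 had 9.86 and 3.17 against 11.3 and 18.5. CCN2 had the highest scores of the 10 genes in all lists, with 72.3 and 69.8 against 75.0 and 77.1, from 2 regions. CCN1, with 3.80 and 5.46 against 15.4 and 5.84, was separated by a margin of less than 1 point.

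Both I-BET151 scores were above both DMSO scores at 7 of the 10 genes, beside 51.1% of all genes, and below them at 0, beside 2.97%. The median difference was 8.84 for the 10 genes and 10.6 for all genes, and for each gene the exact permutation test, two-sided, cannot go below p = 0.33. The direction depended on the length of the lists for 5 of these 7 genes. With the 38295 strongest peaks of each list, the difference was -4.31 for YAP1, -8.42 for WWTR1, -4.12 for TEAD3, -4.29 for CCN1 and -10.8 for CCN2, whereas it was 15.4 for AMOTL2, 4.82 for TEAD1 and 0.355 for TEAD4. The AMOTL2 difference was positive under each of the 12 alternatives that could change it, between 15.4 and 49.3, and was 29.2 between the replicate 1 libraries and 27.8 between the replicate 2 libraries. It was not the largest of the target genes under all of them. With windows of 50 kb it was 24.5, beside 25.6 for CCN2. At a −log10 p of at least 10 it was the largest by a narrow margin, with 36.8 beside 36.7 for ANKRD1. Between the replicate 1 and the replicate 2 libraries the difference was 8.02 and 23.6 for WWTR1, -0.154 and 24.7 for TEAD1, -22.1 and 6.67 for TEAD2 and -15.4 and 12.6 for ANKRD1, so that the last 3 changed sign between the pairs.

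The other genes of the pathway mostly scored higher with I-BET151, as most genes did. Of 27 genes upstream of YAP and TAZ or acting as cofactors (kinases, scaffolds and VGLL proteins among them), 19 had both I-BET151 scores above both DMSO scores (70.4%, beside 51.1% of all genes) and 0 had both below, with a median difference of 10.4. VGLL1, a TEAD cofactor, had the largest difference, with 0 and 0 against 28.8 and 50.0. It had 3 regions, 1 of them gained, and its scores of 0 stand for missing calls in the DMSO lists. LATS2, a kinase that phosphorylates YAP, had the smallest difference, with 22.3 and 10.8 against 12.6 and 21.8. Of 16 further YAP and TAZ target genes, 9 had both I-BET151 scores above (56.3%) and 0 had both below, with a median of 13.2. CCDC80, an extracellular matrix gene, had 13.3 and 6.14 against 38.1 and 43.6, and GADD45A, a stress response gene, had 59.4 and 47.0 against 47.8 and 54.6. Gained regions made up 57 of 356 (16.0%) and 53 of 281 (18.9%) of the regions of these 2 groups, beside 17.0% of all merged regions. Lost regions made up 4 (1.12%) and 4 (1.42%), beside 2.37%. Of the shared regions of these 2 groups, 2 of 79 passed limma upwards and 2 downwards in the first group, and 5 of 48 passed upwards and 1 downwards in the second. Over all 25627 shared regions, 3.41% passed upwards and 1.96% downwards. The alternatives, equal numbers of peaks among them, were run for the 10 genes and not for these 2 groups.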

How the data were processed

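Groups and replicate numbers came from the sample labels. Per the labels and the study's methods, the authors mapped reads with Bowtie2 (2.2.5, hg38), filtered out duplicate and mitochondrial ones, and ran MACS2 (2.1.2) separately on each library. The deposited lists give for each peak a display score (not used), a fold enrichment (the ratio of summit pileup to background), a −log10 p-value and a −log10 q-value, and they reach down to a q-value of 0.05. The methods state a p-value threshold of 1e-05, which was therefore run as an alternative. Shortest peaks, which follow the caller's read extension, measured 200 bp in DMSO and I-BET151 replicate 1, 233 bp in DMSO replicate 2 and 256 bp in I-BET151 replicate 2.

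The pileup in reads was solved from the fold enrichment and the p-value and came back as a whole number for 100% of the peaks; read numbers were taken from the genome-wide background. Autosomal and sex-chromosome peaks that shared at least 1 bp were merged (Python 3.11.15, pandas 2.3.3, scipy 1.17.1), and a merged region took the strongest peak of each list. Rank shifts were fitted with limma 3.58.1 in R 4.3.3 on condition only, with Benjamini-Hochberg adjustment over all shared regions. The pileup solution, the merging, the calls, the assignment of regions to a locus and the limma fit were tested on simulated data. The 10 genes, the other gene lists and the tests were chosen with earlier results of these data known. Named were all 10 genes and, at each, the regions at the start site, with the highest mean percentile, with an adjusted p below 0.05, and the gained and the lost region with the highest lower-of-2 fold, and, of the 2 pathway lists, the genes with the largest and smallest difference. YAP1 regions 17 and 18, WWTR1 regions 17, 19, 21 and 23, TEAD1 region 24, TEAD3 region 4, TEAD4 region 14 and AMOTL2 region 3 were named after their values were seen. Alternatives were −log10 p of at least 5 or 10, equal numbers of peaks, an overlap of 50%, windows of 5 and 50 kb, each library left out, ranks by −log10 p, centred log2 pileup, a replicate block, and motif windows of 50 and 250 bp. Sequences were read from hg38, and 1 promoter window is not reported here.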

Additional observations from a re-analysis of the deposited data

How the results depend on the processing

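With 2 libraries per group and pileups of 6 to 124 reads at the member regions, differences within the spread of the libraries were not detectable. The count of 22 gained regions was 9 with equal numbers of peaks and ranged from 22 to 40 when a library was left out (40 and 36 without I-BET151 replicates 1 and 2). The count of 3 lost regions was 0 at −log10 p of at least 10, 7 with windows of 50 kb, and 3 to 27 when a library was left out (27 without DMSO replicate 2, 20.6% beside 20.9% of all regions). The counts of 0 regions up and 0 down in rank became 2 up at −log10 p of at least 10 and 4 down with centred log2 pileup, and 0 to 2 up and 0 to 1 down when a library was left out (2 and 1 without I-BET151 replicate 2: TEAD4 regions 13 and 14 up and WWTR1 region 19 down). The mean locus score difference over the 10 genes, 8.97, was 19.4 at −log10 p of at least 10, 15.1 over regions called in all 4 lists and -3.66 with equal numbers of peaks, and 3.61 to 18.0 when a library was left out (18.0 without DMSO replicate 1). The mean number of peaks with I-BET151, 1.62 times that with DMSO, was 2.64 times at −log10 p of at least 10 and 1.19 to 2.56 times when a library was left out. Among the 7 genes with both I-BET151 scores above both DMSO scores, some differences changed sign. With equal numbers of peaks these were -4.31 (YAP1), -8.42 (WWTR1), -4.12 (TEAD3), -4.29 (CCN1) and -10.8 (CCN2). With windows of 5 kb they were -0.176 (CCN1) and -8.36 (CCN2), and over regions called in all 4 lists -3.36 (YAP1) and -5.08 (CCN1). Of the genes that overlapped between the groups, ANKRD1 (-1.37) had the other sign in 7 of 12 alternatives, with up to 36.7. TEAD2 (-7.71) had it in 4, with up to 15.8, and TEAD1 (12.3) in 0. The cause of these changes was not tested.

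Deviations of libraries with the same number did not go together (correlation -0.143 over 25627 shared regions), and no source used here says that a number marks a shared batch. Both replicate 1 lists had the same shortest peak of 200 bp, against 233 and 256 bp in the replicate 2 lists, and whether the numbers mark batches was not tested. With the replicate number as a block, 0 member regions passed in either direction (985 up and 652 down over all shared regions, against 875 and 503 without it). The gained and lost calls do not use a block and could not change. The mean locus score difference, 8.97, cannot change under a replicate block in a balanced design. A crossed pairing, chosen after seeing the data, gave 2 member regions up and 1 down.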
